A study of Mus musculus with 6 samples.

Results

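The imprinted genes described here are Nnat and 9 other genes, Peg3, Mest, Plagl1, H19, Dlk1, Grb10, Meg3, Impact and Ndn, whose RNA was measured in mouse lung tumour cells with reduced MKK4. Members were chosen by name: the list was drawn up around Nnat, which had been selected on its fall in these same arrays, so the values of the members are given as a description, without a test. All probe sets annotated to exactly 1 of the listed genes were taken. This gave 37 probe sets of 9 genes, among 18193 genes measured. The only H19 probe set is also annotated to Mir675, so H19 was not analysed here.

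The cells were 393P, a mass culture derived from a primary lung tumour of a p53R172H∆g/+ K-rasLA1/+ mouse, that is, of an animal with a mutant p53 allele and an activating K-ras allele, both carried by every culture compared. One group of 3 cultures had a scrambled control vector and the other group of 3 had a short hairpin RNA (shRNA) against MKK4, the product of Map2k4, a kinase upstream of the stress kinases JNK and p38. The labels disagree on delivery, naming retroviral infection in the series design and Lipofectamine transfection in the treatment protocol. Each group is 1 cell population grown in triplicate, so a p-value measures the spread between cultures and not between independently made lines.

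Imprinted genes are expressed mainly or only from the copy inherited from one parent. The choice is set in the germ line by DNA methylation at control regions. It is kept after fertilization by methylated DNA and by proteins such as the zinc finger protein ZFP57 with its partner TRIM28. Several of the genes listed here form a network of growth regulators that is active in fetal tissues and falls after birth, and Plagl1 encodes a transcription factor that acts on other members of that network. These arrays do not tell the parental copies apart, and the data give total RNA only.

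Promoter windows of 8 of the 9 measured genes, all but Impact, were taken from the RefSeq table used here (build GRCm38.p6). Each runs from 250 bases before to 50 bases after a gene start. They were searched on both strands for TGCCGC, read as GCGGCA on the other strand, the 6 letters that ZFP57 binds when the CG in them is methylated. The motif was present in the windows of 5 of the 8 genes, Nnat, Mest, Plagl1, Grb10 and Meg3, against 13.1% of all genes in the table. By window it was 6 of 12, where 2 overlapping Mest windows hold the same matches. Over all 32851 windows of the table the share was 11.6%, and over the 12454 windows with at least 13 CG pairs, the fewest in any member window with a match, it was 24.1%. No match was found in the windows of Peg3, Dlk1 and Ndn. Impact was left out of the search, so the counts by gene and by window do not cover it. The upstream parts for Nnat, the member that fell, and for Plagl1 and Meg3, members with a match upstream of the start, are shown 5′ to 3′ along the direction of transcription, with the motif in capitals. They lie at chr2:157559828-157560077, chr10:13090582-13090831 and chr12:109540746-109540995, all on the plus strand.
Nnat: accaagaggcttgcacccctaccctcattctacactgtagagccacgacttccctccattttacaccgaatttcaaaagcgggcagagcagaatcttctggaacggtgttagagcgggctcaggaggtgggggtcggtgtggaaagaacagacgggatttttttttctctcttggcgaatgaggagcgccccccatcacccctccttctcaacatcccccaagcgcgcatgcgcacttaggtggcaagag
Plagl1: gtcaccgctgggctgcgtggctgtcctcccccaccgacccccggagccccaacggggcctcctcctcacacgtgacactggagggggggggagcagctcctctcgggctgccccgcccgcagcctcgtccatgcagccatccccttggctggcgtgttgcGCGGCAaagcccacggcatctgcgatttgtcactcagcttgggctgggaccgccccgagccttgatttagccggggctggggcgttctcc
Meg3: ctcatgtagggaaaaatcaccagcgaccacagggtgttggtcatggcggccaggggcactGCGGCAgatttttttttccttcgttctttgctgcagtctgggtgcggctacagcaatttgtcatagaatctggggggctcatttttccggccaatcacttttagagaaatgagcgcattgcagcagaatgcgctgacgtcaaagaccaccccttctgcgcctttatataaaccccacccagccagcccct
The Nnat stretch above has no match because its motif lies 27 bases after the gene start, in the 30 bases at chr2:157560093-157560122.
Nnat site: gccaccggggctGCGGCAttgcgcccagca
The motif begins 90 bases before the Plagl1 start and 190 bases before that of Meg3. Mest, not shown, also had upstream matches. They begin 242 and 67 bases before one of its starts, which is 245 and 70 bases before another. A match is a description of the letters and not a site shown to be bound, and methylation was not measured.

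The knockdown and the background set the frame for reading the members. Map2k4 had intensities of 700.3, 638 and 597 in the control cultures and 240.1, 295 and 287 with the shRNA. The change was -1.21 on the log2 scale (SE 0.079, limma adjusted p = 0.000126). Background was taken for each array as the highest of the probe sets for the bacterial trpnX transcript, 26.5 to 39.5 units. Of 7 epithelial markers, 7 were above it on all 6 arrays, with summed levels of 47199 to 47738 in control and 46572 to 47642 in shRNA cultures. Among these, Krt19 was called higher (0.23) and Epcam (-0.35), Cdh1 (-0.14) and Cldn7 (-0.13) lower. Of 6 lung lineage markers, Sftpc, Sftpb and Sftpa1 were above background on all 6 arrays, and Nkx2-1, Scgb1a1 and Napsa were below it on every array. Changes are differences of log2(intensity + 16) after quantile normalization, which understates changes of dim genes. "Called" means a limma adjusted p under 0.05 over all genes or all probe sets.

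Of the 37 member probe sets, 16 were above background on all 6 arrays, 7 on some arrays and 14 on none. The 16 belonged to 8 genes, Nnat, Mest, Plagl1, Dlk1, Grb10, Meg3, Impact and Ndn. Of these 16, 12 had a log2 change below 0 and 4 one above 0. They are not independent, as 6 were probe sets of Meg3 and 3 of Ndn, and no trend is read from this split. Apart from Nnat, 15 of 15 differed by less than 0.5 in size. Over all 37 probe sets the median change was -0.06, against -0.01 over all 45037 probe sets tested. With Nnat left out, the median size of change was 0.11, against 0.10 over all probe sets.

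**Figure D1:**
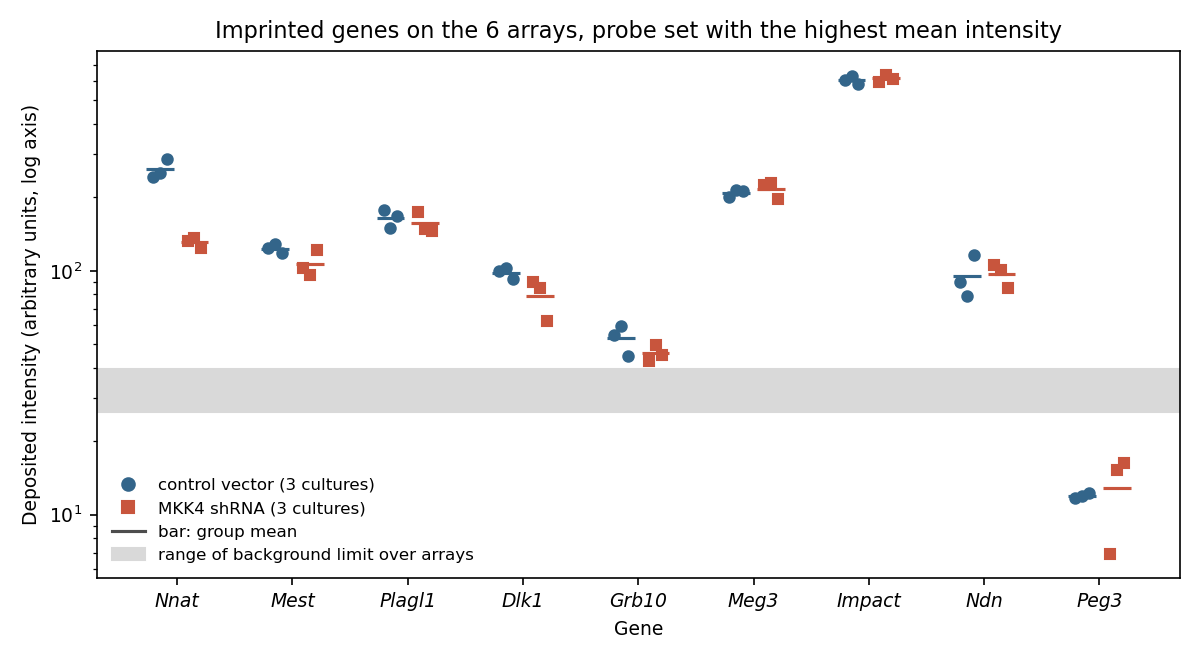
Deposited intensity (log axis) of the brightest probe set of each of the 9 measured genes on the 6 arrays. Circles are control vector cultures, squares are MKK4 shRNA cultures, bars are group means, and the grey band is the range of the background limit over arrays. Nnat separates the groups clearly, Dlk1 separates them narrowly, and Peg3 lies below the band on all arrays.

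Nnat encodes neuronatin, a small membrane proteolipid of the endoplasmic reticulum studied in neurons, pancreatic beta cells and fat, where it has been tied to calcium handling. It is expressed from the paternal copy. Its single probe set (1423506_a_at, chromosome 2) had intensities of 243, 253 and 288 in the control cultures and 133, 136 and 124 in the shRNA cultures. The lowest control value lay far above the highest shRNA value, and all 6 values were above background. The means were 261 ± 23.7 and 131 ± 6.22 (SD, n = 3 each). The change was -0.93 (SE 0.081, 95% interval -1.12 to -0.74), a 1.90-fold higher level in control cells. In RNA from whole cultures, fewer cells with Nnat RNA and less of it per cell cannot be told apart. Across all 18193 genes, 13 had a fall at least as large, Nnat included, a rank that follows from its selection on this fall.

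In the fit over genes, 1 of the 9 members was called, Nnat, where 11.8% of all genes were called. Among probe sets, 1 of 37 was called, the same one, against 6.37% of all. Groups did not overlap for 4 of the 37 member probe sets, 3 lower and 1 higher, against 21.2% of all probe sets. Because Nnat was selected on this contrast, nothing is read from these counts for it.

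**Figure D2:**
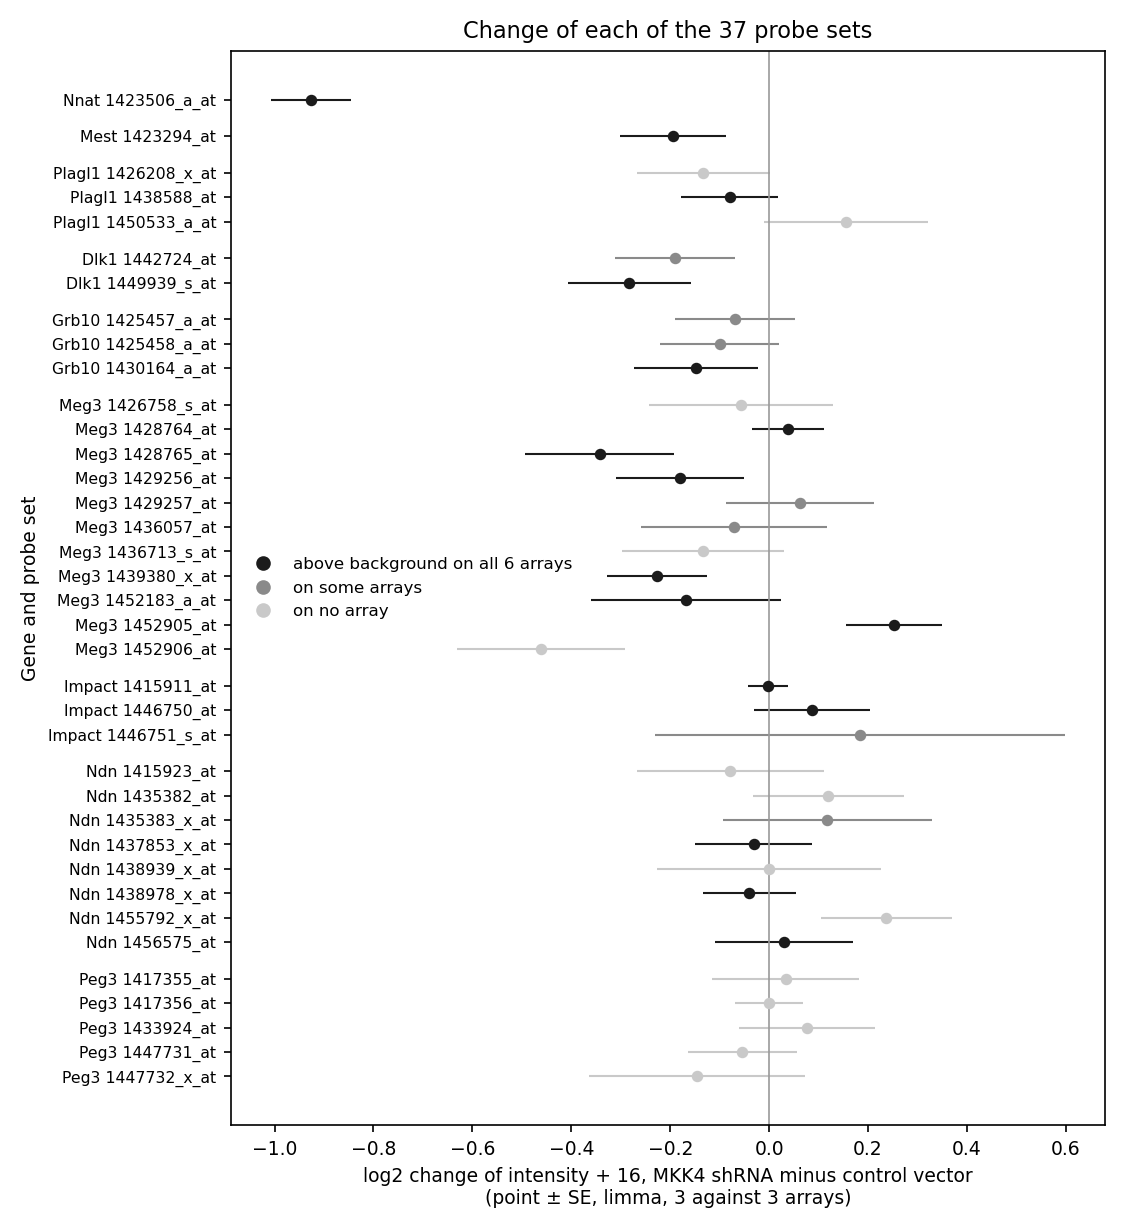
Change of each of the 37 member probe sets on the log2 scale (MKK4 shRNA minus control vector), points with standard errors from limma, 3 arrays against 3. Shade gives how many arrays were above background. Nnat lies at -0.93, and the next largest, a Meg3 probe set below background on every array, at -0.46.

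The growth regulators of the network came next. Mest, a paternally expressed gene for an enzyme-like membrane protein of the alpha/beta hydrolase fold, had 124, 128 and 118 in the controls and 103, 96.0 and 121 with the shRNA. These groups overlapped, through shRNA culture C. The change was -0.19 (SE 0.107, 95% interval -0.45 to 0.06). Plagl1, the zinc finger transcription factor, had 177, 149 and 169 against 175, 149 and 146 with its one probe set above background, a change of -0.08 (95% interval -0.31 to 0.15). The groups overlapped throughout. Its other 2 probe sets were below background on all arrays.

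Grb10 encodes an adaptor that restrains signalling of the insulin and IGF1 receptors. Its brightest probe set (1430164_a_at) had 54.6, 59.4 and 44.7 in the controls and 42.9, 49.9 and 45.2 with the shRNA, values not far above background that overlapped between groups. The differences of the 3 Grb10 probe sets were -0.15 to -0.07. For the one named, the 95% interval ran from -0.44 to 0.15.

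Dlk1 and Meg3 lie side by side on chromosome 12 and are expressed from opposite parental copies. Dlk1 encodes a membrane protein related to Notch ligands that holds back fat cell differentiation. Its brighter probe set (1449939_s_at), of a type that can match several transcripts, had 99.5, 103 and 92.9 in the controls and 89.9, 85.4 and 62.1 with the shRNA. All shRNA values were below all control values, by a small margin for cultures A and B. The change was -0.28 (SE 0.124, 95% interval -0.57 to 0.01) and was -0.16 without shRNA culture C. The other Dlk1 probe set (1442724_at), at 49.5, 50.6 and 57.5 against 52.9, 39.1 and 40.7, overlapped, with a difference of -0.19.

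Meg3, a long noncoding RNA expressed from the maternal copy, had 11 probe sets, and they did not move together. The brightest (1428764_at) had 201, 214 and 212 against 224, 230.2 and 196, with overlapping groups and a change of 0.04. Probe set 1428765_at had 63.9, 64.5 and 79.0 against 58.7, 59.2 and 38.2, so its groups did not overlap, and its difference was -0.34 (SE 0.151, 95% interval -0.69 to 0.01). In the opposite direction, 1452905_at had 49.1, 54.1 and 50.7 against 67.6, 62.2 and 62.6, again without overlap, with a change of 0.25 (SE 0.097, 95% interval 0.03 to 0.48). Neither of these was called, and the Meg3 probe sets above background on all 6 arrays had both signs.

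One array recurred as the low one at this locus, a pattern noticed in the values. Of the 7 Dlk1 and Meg3 probe sets above background on all 6 arrays, 6 had their lowest value on the array of shRNA culture C. Over the 9 such probe sets of the other members it was 2, and over all 28330 such probe sets of the array, 19.3%. The 7 are not independent, as 6 of them are probe sets of Meg3. Without that array the Meg3 change was -0.20 for 1428765_at and 0.25 for 1452905_at. For 1452183_a_at, at 74.1, 84.7 and 82.6 against 98.1, 71.8 and 47.6, it was -0.17 with all arrays and 0.03 without. Of the other noncoding RNAs of the same domain, Rian had 78.7, 64.5 and 74.5 against 76.8, 85.7 and 74.1, a change of 0.09 (limma adjusted p = 0.673), and Mirg was above background on 1 of 6 arrays.

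Impact, which encodes an inhibitor of the amino acid sensing kinase GCN2, had the smallest standard error of the list. Its main probe set (1415911_at) had 608, 629 and 586 in the controls and 594, 637 and 614 with the shRNA, which overlapped throughout. The means of the deposited values were 608 and 615. The change after normalization was -0.002 (SE 0.040, 95% interval -0.10 to 0.09), so a change as large as that of Nnat lies far outside the interval. A second probe set (1446750_at), at 62.7, 54.0 and 62.8 against 61.9, 59.9 and 72.5, had a difference of 0.09. The kinase itself, Eif2ak4, had a change of -0.32 that was not called (limma adjusted p = 0.0974).

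Ndn encodes necdin, a growth suppressor of the MAGE family known from neurons, and lies in the imprinted domain of chromosome 7 that corresponds to the Prader-Willi region. Of its 8 probe sets, 3 were above background on all 6 arrays. The brightest (1456575_at) had 90.1, 79.2 and 116 against 106, 101 and 84.9, a change of 0.03 with a 95% interval of -0.29 to 0.36. The other 2 had differences of -0.03 and -0.04, and groups overlapped for each of the 3. Peg3, a paternally expressed zinc finger gene, had 5 probe sets with values of 1 to 16.9 units, below background on all 6 arrays, and no fold is given for it. One of them (1417356_at) stood at exactly 1 on all 6 arrays, a value that recurs 1475 to 1633 times per array in the deposited table.

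Nnat lies within an intron of Blcap, a gene for a small conserved membrane protein, on distal chromosome 2. Blcap had 1213, 1183 and 1151 against 1029, 1040.1 and 1087 and changed by -0.18 (SE 0.041, limma adjusted p = 0.0285), without overlap. It is a call of the setting reported: it passed in 6 of 17 settings, and with each array left out in turn its adjusted p missed the threshold in 5 of 6 cases. Ctnnbl1, a splicing factor gene next to Nnat, changed by -0.17 (adjusted p = 0.034) and also passed in 6 of 17. Among the 48 genes that are the nearest neighbours of the members, 2 were called higher, 3 lower and 43 neither, or 10.4% called against 11.8% of all genes. The 5 calls became 2 without control array B or shRNA array B, and 3 without shRNA array A or C. The higher ones were Sf3b5 near Plagl1, a splicing factor subunit (0.24), and Wars near Dlk1 and Meg3, the tryptophanyl-tRNA synthetase (0.29). Sf3b5 passed in 11 of 17 settings, missing the threshold without control array B or any shRNA array, and Wars in 16 of 17. The third lower one was Cobl near Grb10.

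The wider neighbourhood of Nnat was lower in the shRNA cultures. Of the 80 measured genes closest to it, 40 on each side, 28 were called lower and 0 higher (11.8% of all genes were called, 5.39% lower and 6.39% higher). Among the 66 of these above background on all 6 arrays, 53 had a change below 0 and the median was -0.17. The lowest was Soga1 at -0.47, so the fall of Nnat was larger than that of each of the 80 genes around it. Nnat was selected on this contrast, so nothing is read from that ranking. The same window around the other members held 0 to 6 genes called lower, with medians of -0.04 to 0.04. The contrast between windows was not tested.

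This lower level was spread over much of chromosome 2. Of its 1399 genes 16.2% were called lower, against 4.49% of the genes of all other chromosomes. Other chromosomes were shifted too. For genes at least as bright as the median gene, the median change was -0.10 on chromosome 2. On the others it ran from -0.06 (chromosome 19) to 0.11 (chromosome 15). Chromosomes 11, 13 and 15 had 222, 104 and 122 genes called higher and 26, 8 and 14 lower. In consecutive runs of 100 genes along chromosome 2, the first 6 runs had 4 to 10 genes called lower and the next had 15. The runs from gene 701 onward had 15 to 35, and the run with 35, the highest, was the one that holds Nnat. With the median of the brighter genes of its own chromosome subtracted on each array, an alternative chosen after seeing the data, the change of Nnat was -0.81, and that of Blcap was no longer called.

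**Figure D3:**
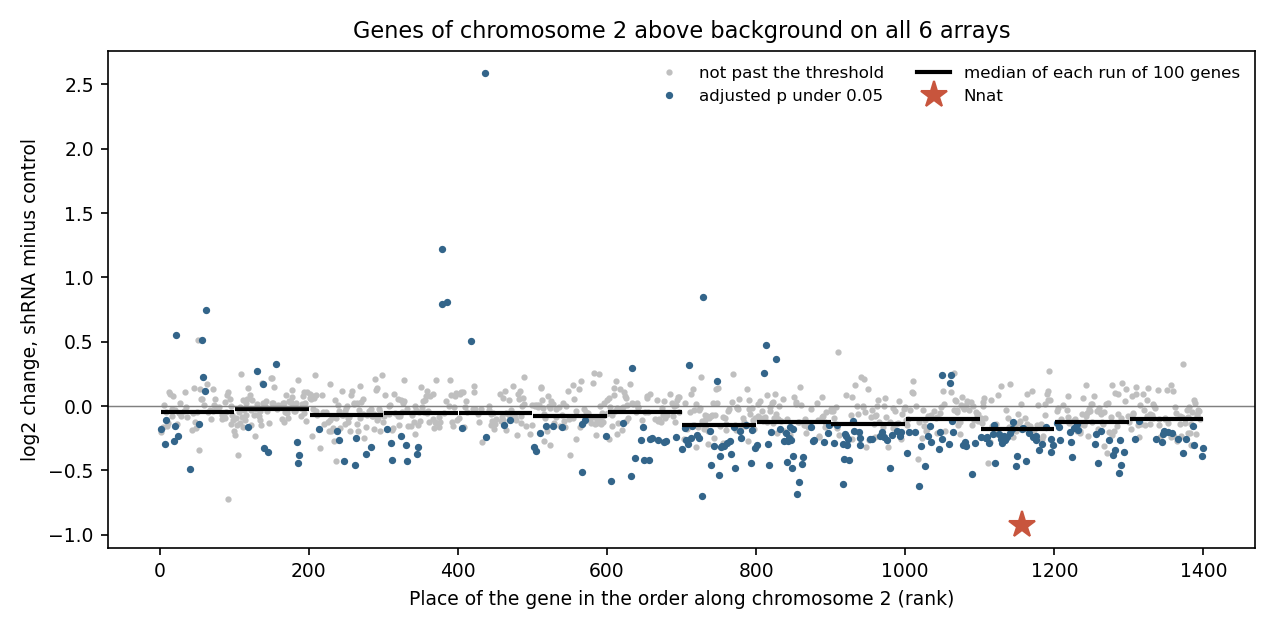
Change on the log2 scale (shRNA minus control) of the 1079 genes of chromosome 2 above background on all 6 arrays, placed by their order along the chromosome. Bars are medians of consecutive runs of 100 genes; Nnat (star, -0.93) lies in the run whose median is -0.18.

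Genes whose levels followed Nnat most closely were found by Pearson's r over the 6 arrays, among 9281 genes. The 5 closest were Ddah2 (r = 0.998), Ttpal, related to the tocopherol transfer protein (0.998), Xrn1, the cytoplasmic exoribonuclease (0.997), Pxdc1 (0.997) and 1600012H06Rik (0.997). All 5 were lower with the shRNA, by 0.20 to 0.44 on the log2 scale, and none changed as much as Nnat, which had been selected on its fall. Ttpal is also on chromosome 2. Since 378 genes had r over 0.95, and the 6 points are 3 of one group and 3 of the other, r holds the difference between groups as well as the spread within them.

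Other imprinted genes were followed in a list of 66, of which 57 were measured and 37 were above background on all 6 arrays. In the fit over all genes 4 were called higher, 10 lower and 43 neither, or 24.6% called against 11.8% of all genes. The median change was -0.05 and 34 of 57 were below 0. Without control array C, 9 were called in place of 14. The share over all genes includes dim ones. With the dimmer genes left out, 12 of 25 were called, where 2632 of all 9097 genes left were.

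**Figure D4:**
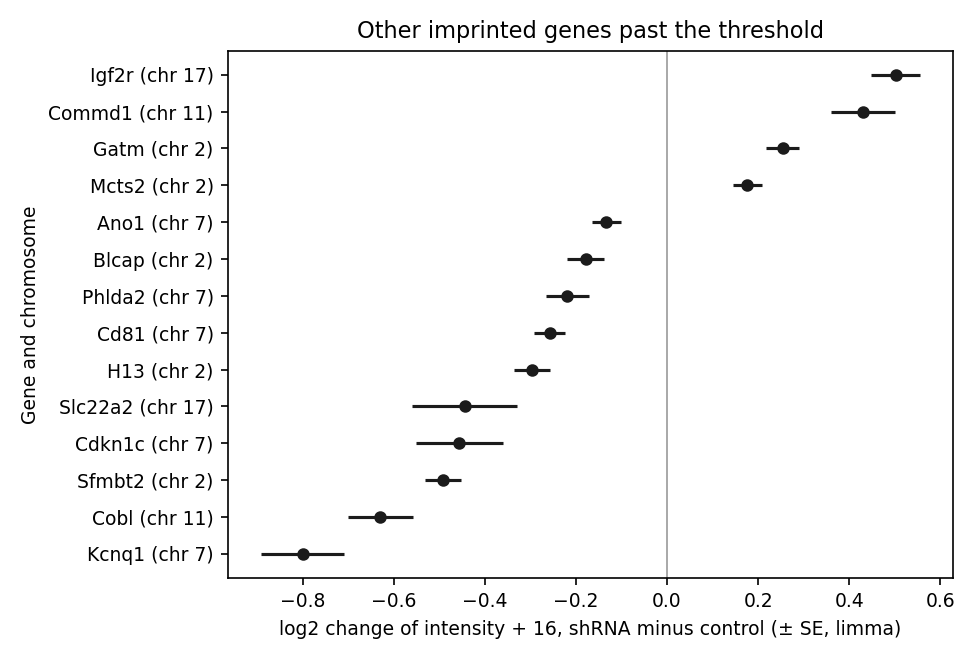
Change on the log2 scale (shRNA minus control, points with standard errors from limma, 3 arrays against 3) of the 14 other imprinted genes past an adjusted p of 0.05. Kcnq1 is lowest at -0.80 and Igf2r highest at 0.50.

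The 4 lower genes with neighbouring places on distal chromosome 7 belong to the domain ruled by the Kcnq1ot1 RNA. Kcnq1, a potassium channel subunit, had 182, 185 and 189 against 105, 90.5 and 105 and fell by 0.80 (SE 0.091, limma adjusted p = 0.00141), the largest fall of the list. Cdkn1c, the CDK inhibitor p57 and a brake on the cell cycle, had 182, 218 and 226 against 148, 158 and 139 and fell by 0.46 (adjusted p = 0.0196). Phlda2, a growth-restraining gene of the placenta, fell by 0.22 and Cd81, a tetraspanin, by 0.26. In none of the 4 did the groups overlap.

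Kcnq1 and Cd81 passed in every setting tried. Cdkn1c passed in 10 of 16 and missed the threshold when control array B or C or any shRNA array was left out (highest adjusted p = 0.0826), and Phlda2 passed in 12 of 17 and missed it without any 1 of the control arrays. Kcnq1ot1 itself, the noncoding RNA from the paternal copy, had 302, 306 and 297 against 329, 359 and 342, which did not overlap, and its change of 0.17 was not called (adjusted p = 0.0893). The grouping by domain was made after the values were seen. Counted over the 11 genes of the domain in the list, 4 were called lower, 0 higher, and 9 were below 0. In the window of 68 genes around Kcnq1, 10 were called lower and 2 higher. Over all genes 5.39% were called lower and 6.39% higher.

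Igf2r, the receptor that clears IGF2 from the cell surface and is expressed from the maternal copy, rose on the brighter of its 2 probe sets, from 1059, 989 and 1023 to 1518, 1436 and 1454 (0.50, SE 0.053, limma adjusted p = 0.00103). Its second probe set had 891, 709 and 764 against 770.4, 893 and 737, overlapping, with a change of 0.01, so the 2 do not give one answer for the gene. Igf2, the ligand, had 102, 133 and 103 against 121, 124 and 82.0, a difference of -0.05 (adjusted p = 0.892). Commd1, a gene that holds the imprinted Zrsr1 in an intron, rose on both of its probe sets, by 0.43 and 0.61. It lies on chromosome 11, where 222 genes were called higher and 26 lower.

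Imprinted genes of chromosome 2 moved both ways. Sfmbt2, a Polycomb group gene of the early embryo and placenta, fell by 0.49 (1628, 1549.8 and 1472 against 1056, 1171 and 1083, adjusted p = 0.000319). H13, a signal peptide peptidase, fell by 0.30, and its other 5 probe sets had differences of -0.53, -0.47, -0.26, 0.01 and 0.12, of which the first (1438456_at) was called in the fit over probe sets. Mcts2, a retrogene within H13, rose by 0.18, a call lost with the replicate block and with no trend in the variance (highest adjusted p = 0.0809). Gatm, an enzyme of creatine synthesis, rose by 0.25, a call in all 17 settings. Gnas, which encodes the stimulatory G protein alpha subunit, had a difference of -0.06 (adjusted p = 0.181).

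Cobl, an actin nucleator gene beside Grb10, fell by 0.63, from 571, 573 and 579 to 321, 408 and 387 (adjusted p = 0.00142). Its second probe set was at background, and averaging the 2 removed the call (adjusted p = 0.112). Slc22a2, with values near background, fell by 0.44 and passed in 5 of 16 settings. Ano1 fell by 0.13 and passed in 3 of 17. The 6 listed genes of the Ndn domain and the 8 of the Peg10 domain had 0 calls each in limma. Snrpn was below background on all 6 arrays and Ube3a had a difference of 0.08.

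Of 34 genes that keep imprints or silence chromatin, 31 were measured, 1 was called higher, 5 lower and 25 neither, or 19.4% called against 11.8% of all genes. Of the 31, 29 were above background on all 6 arrays, while the share over all genes includes dim ones. With the dimmer genes left out, 11 of 26 were called, where 2632 of all 9097 genes left were. Without shRNA array A or B, 3 were called in place of 6. Zfp57, named after its value was seen, had 239.7, 253 and 244 against 266, 288 and 272, groups that did not overlap (0.14, adjusted p = 0.197). Trim28 had a difference of 0.04 and the maintenance methyltransferase Dnmt1 one of 0.09 (adjusted p = 0.29). Those lower were Ezh2, the methyltransferase of Polycomb complex PRC2 (by 0.38, adjusted p = 0.000662), the structural chromosome gene Smchd1 (by 0.28), the chromatin remodeller Atrx (by 0.28), the de novo methyltransferase Dnmt3b (by 0.28) and the cohesin subunit Smc3 (by 0.20). The cohesin subunit Rad21 rose by 0.12.

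Ezh2 and Smchd1 passed in all 17 settings. Atrx rests on 1 of its 7 probe sets, and with the 7 averaged its change was -0.02 (adjusted p = 0.919). Dnmt3b, which lies on chromosome 2, passed in 6 settings, and its call was lost with chromosome centring. Smc3 and Rad21 passed in 5 each. The second probe sets of Dnmt3b and Smc3 had differences of -0.09 and -0.05. The other Rad21 probe sets had 0.17 and 0.15.

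Of 42 partners of the members, such as receptors, binding proteins and signalling targets, 39 were measured, 3 were called higher, 0 lower and 36 neither, or 7.69% called against 11.8% of all genes. Igfbp3, a secreted binding protein of the IGFs, more than doubled, from 360.1, 371 and 398 to 766, 965 and 844 (1.14, SE 0.069, adjusted p = 8.41e-05), and its second probe set changed by 1.14 as well. Igfbp4 rose by 0.40, with changes of 0.36 to 0.58 on its other 5 probe sets. Igfbp3 and Igfbp4 both lie on chromosome 11, where 222 genes were called higher and 26 lower. Both calls held in all 17 settings, which include chromosome centring, with lowest changes of 1.01 for Igfbp3 and 0.28 for Igfbp4. Beyond these settings, the part of that shift in these rises was not tested. Atp2a2, the calcium pump of the endoplasmic reticulum and a reported partner of neuronatin, rose by 0.12, a call that held in 5 of 17 settings and came from 1 of 6 probe sets. The receptors of the insulin and IGF1 pathway that Grb10 binds, Insr (-0.18, adjusted p = 0.148) and Igf1r (-0.11, adjusted p = 0.136), were not called.

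Markers of neurons and neuroendocrine cells, in which Nnat is well known, gave 1 call higher and 0 lower among 11 measured. Of these, 4 were above background on all 6 arrays, Uchl1, Ncam1, Neurod1 and Tubb3, and their list summed to 675 to 702 in control and 724 to 798 in shRNA cultures. Chgb, Scg2, Scg3 and Snap25 were below background on every array. Neurod1, a known activator of Nnat, had 98.1, 90.1 and 99.2 against 102, 112 and 94.5, with overlap, and Ncam1 rose by 0.55 (adjusted p = 0.0124). Of 5 fat cell markers, 1 was above background on all 6 arrays, Pparg, the regulator of fat cell differentiation, which rose from 156, 192 and 199 to 298, 361 and 335 (0.79, adjusted p = 0.00208), while Adipoq, Lep and Cidec were below background on every array and Fabp4 was above it on 1 of 6. The list summed to 198 to 250.4 in control and 351 to 398 in shRNA cultures. Fibroblast markers above background numbered 5 of 8, with sums of 503 to 550.3 and 487 to 566. Leukocyte markers numbered 3 of 7 and endothelial markers 3 of 6, with 0 calls in limma in each of these 3 lists. The part of other cell types in the member values was not tested.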

How the data were processed

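Total RNA of 6 cultures was biotinylated for 1-colour Affymetrix arrays, as the labels' protocols state. The deposited file holds linear intensities for 45101 probe sets. How they were summarised, background-corrected and scaled is not given in the sources used here. Array medians were 92.0 to 95.8, and 1475 to 1633 values per array were exactly 1.

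From these values log2(intensity + 16) was computed, quantile-normalized and fitted in limma 3.58.1 (R 4.3.3) with group as the only term, eBayes with a trend and Benjamini-Hochberg adjustment at 0.05. Control probe sets (64) were not tested. Genes were named by the platform annotation (34945 probe sets with 1 gene, 932 with several, 9160 with none listed). For each gene the probe set with the highest mean over the 6 arrays was kept, which gave 18193 genes, 18032 of them found in RefSeq (GRCm38.p6, names and order only). The fit was tested on simulated data. The number of arrays limits the precision.

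Members and gene lists were chosen with earlier results of these data known. Named genes were all members, called genes of the other imprinted genes and of the neighbours, up to 6 called genes each of the maintenance genes and partners, the 5 genes most like Nnat, Map2k4 and defining markers. Other genes named (Rian, Mirg, Kcnq1ot1, Igf2, Igf1r, Insr, Eif2ak4, Gnas, Snrpn, Ube3a, Zfp57, Trim28, Dnmt1, Soga1) were chosen after their values were seen. Windows around members, runs along chromosome 2, domains, and the low array at Dlk1 and Meg3 were examined after seeing the data. Alternatives were the values as deposited, array medians, other pseudocounts, no dimmer genes, averaged probe sets, no trend, leaving out probe sets able to match several transcripts, the replicate block, chromosome centring, and leaving out each array.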

Additional observations from a re-analysis of the deposited data

How the results depend on the processing

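Map2k4 kept its call in all settings. The change of Nnat was below 0 in all 16 settings (-1.0 to -0.75), as were those of Mest, Plagl1, Dlk1 and Grb10, while Peg3, Meg3, Impact and Ndn had both signs. The count of genes called, 2143, was 1130 with no trend and 1158 to 1672 with each array left out (1350 without control B, 1317 without control C, 1158 without shRNA B, 1260 without shRNA C). As deposited, 977 were higher and 565 lower. Calls among other imprinted genes, 14 as reported, ranged from 9 (without control C) to 12 with each array left out. Without the dimmer genes they were 12 of the 25 left. Maintenance genes, 6 as reported, gave 3 as deposited, with array medians centred, with averaged probe sets, with no trend and with chromosome medians centred. They gave 11 of the 26 left without the dimmer genes, and 3 (without shRNA A or B) to 5 with arrays left out. Neighbours, 5 as reported, gave 3 as deposited, with array medians centred and with averaged probe sets, and 2 with no trend. Without the dimmer genes 9 of the 16 left were called, and with arrays left out 2 (without control B or shRNA B) to 4. Partners, 3 as reported, gave 9 of the 28 left without the dimmer genes. In that setting 2632 of all 9097 genes left were called. Removing dim genes leaves fewer genes to adjust over, and the variance trend is also fitted anew on the brighter genes alone. Leaving out an array leaves fewer samples. What caused the differences between settings was not tested.

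The replicate letters did not pair the cultures (correlations of deviations -0.03 for A, -0.01 for B and -0.11 for C). With the replicate block the counts were 1211 genes, 9 other imprinted genes, 3 maintenance genes and 3 neighbours, and Nnat changed by -0.93. The probe sets carry no measure of parental origin, and values near 40 units or less were close to background.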
